A study of Arabidopsis thaliana with 4 samples.

Results

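The genes described here are the annotated microRNA (miRNA) precursor genes of Arabidopsis thaliana, the loci whose long transcripts are cut down to mature miRNAs. They were taken as every gene of the authors' deposited tables whose name begins with MIR and a digit, which gave 175 of 33557 genes. Each of the 175 loci is typed as a miRNA gene in RefSeq, which lists 326 such genes, and 9 of them carry one of 3 names (MIR166, MIR172, MIR390) that more than 1 locus bears. RNA was sequenced from whole seedlings, 14 days old, of 2 mutants in the Col-0 background, hdp3-2 and asil1-2, with 2 libraries per mutant. Both mutants were stratified for 3 days and grown at 22 °C with 16 h light and 8 h dark. The medium held 2% sucrose and 0.8% agar. The series asks how HDP3, a Harbinger-type transposase domesticated by the plant, and ASIL1, a trihelix DNA-binding factor, act on gene expression. The authors set each mutant against wild-type Col-0 in a table of its own. No wild-type library is listed with the samples used here, so the control comes from outside them, and the sources used here give neither their number, age and growth conditions nor whether they were grown and sequenced together with the mutants. The part of such a batch in a difference from wild type, in 1 mutant or in both, was not tested and cannot be told apart from genotype here. The labels name the alleles but not the kind of mutation, and whether the 2 libraries of a mutant are separate harvests is not stated, so p-values may measure technical spread only.

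A plant miRNA gene is transcribed by RNA polymerase II, and the transcript folds into a hairpin. DCL1, with its partners HYL1 and SERRATE, cuts the hairpin, HEN1 methylates the resulting duplex, and AGO1 carries the mature strand to messenger RNAs with a closely matching site, which are cut or held back from translation. Many of the conserved families act on transcription factors that set leaf shape, phase change and flowering, and others act on genes of copper, sulfate and phosphate nutrition. The tables measure RNA from the precursor loci and from the target genes, and give no level of any mature miRNA.

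The mature sequences below, read from the RefSeq genome (TAIR10.1), are shown because their precursor genes carry the results that follow. They run 5′ to 3′, and capitals mark the seed, bases 2 to 8.
miR167d: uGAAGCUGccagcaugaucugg
miR167a-5p: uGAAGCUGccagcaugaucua
miR163: uUGAAGAGgacuuggaacuucgau
miR822-5p: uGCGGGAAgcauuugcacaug
miR414: uCAUCUUCaucaucaucguca
miR156c-5p: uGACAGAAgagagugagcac
miR162a-3p: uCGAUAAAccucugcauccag
miR164c-5p: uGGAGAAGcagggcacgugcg
miR169h and miR169n: uAGCCAAGgaugacuugccug
miR169b-5p: cAGCCAAGgaugacuugccgg
miR398c-3p: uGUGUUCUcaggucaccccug

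RefSeq lists 255 mature miRNAs for the 175 loci, with 204 distinct sequences and 172 distinct seeds, of which 38 occur in more than 1 locus. The 24 loci with an FPKM above 0 in some genotype give 36 mature miRNAs with 33 seeds. Among these loci only 2 seeds are shared, GAAGCUG between MIR167A and MIR167D, and AGCCAAG between MIR169B, MIR169H and MIR169N.

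The unit of the tables is FPKM (fragments, corrected for transcript length and for the size of the library), with 1 value per gene and genotype, so depth is unknown and no value carries a spread between libraries. The error given beside a log2 fold change (mutant over wild type) is the standard error (SE) implied by the authors' Cuffdiff statistic. Most of these SEs are larger than those behind the authors' p. A gene was called where Cuffdiff's adjusted p, the q of the authors' deposited table, was under 0.05. Of all tested genes, 3.08% of 20177 were called in hdp3-2 and 8.42% of 20205 in asil1-2. ASIL1 itself stood at 4.16 FPKM in asil1-2, against 22.9 FPKM in wild type (log2 fold change -2.46 ± 0.30, Cuffdiff q = 0.00165). No locus is paired with the name HDP3 in the sources used here, so its level is not given. All 4 shoot markers and all 5 root markers examined were above 0 in every genotype, but the root marker WOX5 was under 1 FPKM in each. Of the 5 root markers, 4 lay below wild type in hdp3-2 and 3 in asil1-2, and 3 of the 4 shoot markers did in each mutant. Only IRT1, an iron transporter of root epidermis, was called, with 3.71 FPKM in asil1-2, against 7.57 FPKM in wild type (Cuffdiff q = 0.0198). In hdp3-2 IRT1 lay on the other side of wild type without being called, with 13.6 FPKM, against 7.43 FPKM in wild type (log2 fold change 0.88 ± 0.47, Cuffdiff q = 0.132). The part of a change in tissue makeup in the results below was not tested.

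Most precursor genes were listed without any RNA in these libraries. In every genotype 151 of the 175 genes, or 86.3%, were listed at 0, against 25.6% of all other genes. By genotype, 90.3% of them were at 0 in hdp3-2, 89.1% in asil1-2 and 89.7% in wild type. An FPKM of at least 1 was reached by 13 genes in hdp3-2, 16 in asil1-2 and 15 in wild type, and by 20 genes (11.4%) in any genotype, against 57.9% of all genes. Just inside that bound was MIR169N, with a highest value of 1.33 FPKM, and just outside it was MIR398C, with a highest value of 0.709 FPKM. The other genes above 0 but under 1 FPKM were MIR172 (AT2G28056), MIR408 and MIR857A. MIR408, of a miRNA family that acts on plantacyanin and laccase genes, had 0.204 FPKM in hdp3-2, against 0.0959 FPKM in wild type, while asil1-2 had 0.223 FPKM, against 0.0977 FPKM in wild type. MIR857A had 0.147 FPKM in hdp3-2 and 0 in asil1-2 and in wild type. A listing at 0 does not show that a gene was inactive, and depth is unknown.

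The share at 0 fell as the locus span in the tables grew longer. Of 89 precursor genes with a span of their own of at most 150 bases, 98.9% were at 0, against 98.6% of 1064 other genes of that length. Between 151 and 250 bases the share was 88.6% of 35 precursor genes and 88.9% of 450 other genes, and between 251 and 500 bases it was 72.7% of 11 precursor genes and 71.7% of 1655 other genes. Above 500 bases, 0 of 7 precursor genes and 21.2% of 25997 other genes were at 0. At each length up to 500 bases the precursor genes and the other genes thus had nearly the same share. The 127 genes at 0 with a span of their own measured 64 to 411 bases (median 117), while the 15 above 0 measured 120 to 2555 bases (median 377) and the 7 of these that were tested 337 to 2555 bases (median 827).

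**Figure D1:**
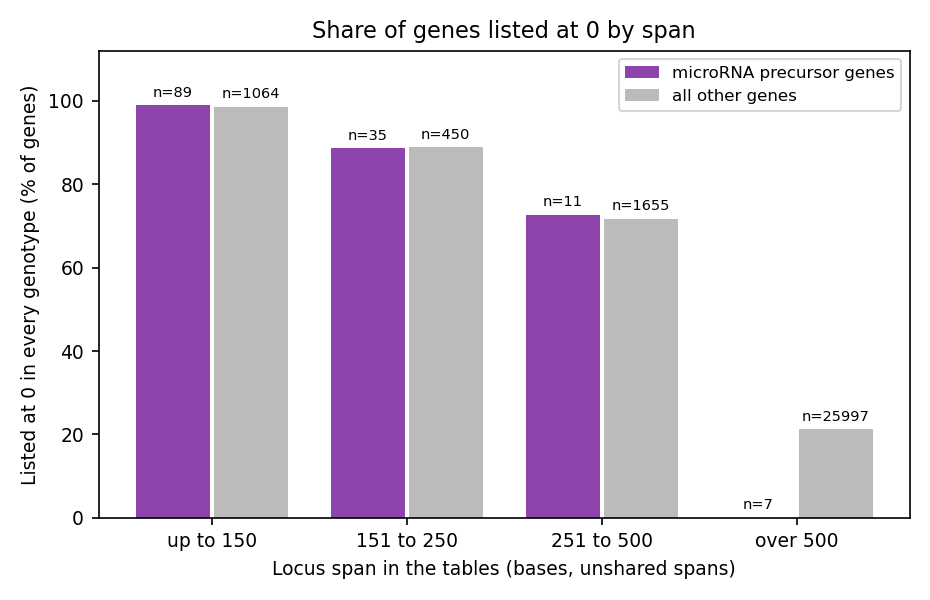
Share of genes listed at 0 FPKM in every genotype (y axis, percent) by the length of the locus span (x axis, bases), for precursor genes (purple) and all other genes (grey) whose span is not shared, with the number of genes above each bar. The bars of both kinds have nearly equal heights up to 500 bases, at 98.9% and 98.6% in the shortest class, and none of the 7 longest precursor genes is at 0.

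By family, as the number in the name gives it, the 175 loci fall into 104 families, and 21 families had a locus above 0. Among the 26 families with more than 1 locus, 10 of 97 loci were above 0, and among the 78 families with 1 locus, 14 were. All 7 loci of miR166 (regulators of leaf polarity genes), all 6 of miR395 (sulfate assimilation), all 6 of miR399 (phosphate homeostasis) and all 3 of miR159 were at 0 in every genotype. The largest family, miR169, which acts on NF-YA transcription factors, had 3 of 14 loci above 0, and the miR156 family, which acts on SPL factors of the juvenile phase, had 1 of 8.

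A locus span shared with another gene makes the assignment of reads less certain, and 33 of the 175 genes have one, among them 9 of the 24 above 0. MIR850A and MIR863A both lie within the noncoding gene AT4G13495 on its strand, MIR850A in an intron and MIR863A in an exon of it, and AT4G13495 itself stood at 296.0 FPKM in hdp3-2 and 215.6 FPKM in asil1-2, against 273.7 and 278.8 FPKM in wild type of each table. MIR834A overlaps an exon of AT5G08230 on the same strand, MIR838A lies in an intron of DCL1, MIR853A lies in an intron of AT3G23325, and MIR398C shares its span with the nitrate transporter gene ATNRT2.7. MIR841A and MIR408 overlap exons of HTA4 and AT2G47020 on the opposite strand, and MIR824A shares its span with AT4G24410. MIR824A also overlaps an exon of AT4G24413, a protein-coding gene of the opposite strand that was not analysed here. The labels do not say whether the libraries keep the strand, so reads of such pairs cannot be told apart here. The neighbour of MIR408, AT2G47020, was the only one of these partners called, with 7.77 FPKM in asil1-2, against 4.51 FPKM in wild type (Cuffdiff q = 0.0114).

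**Figure D2:**
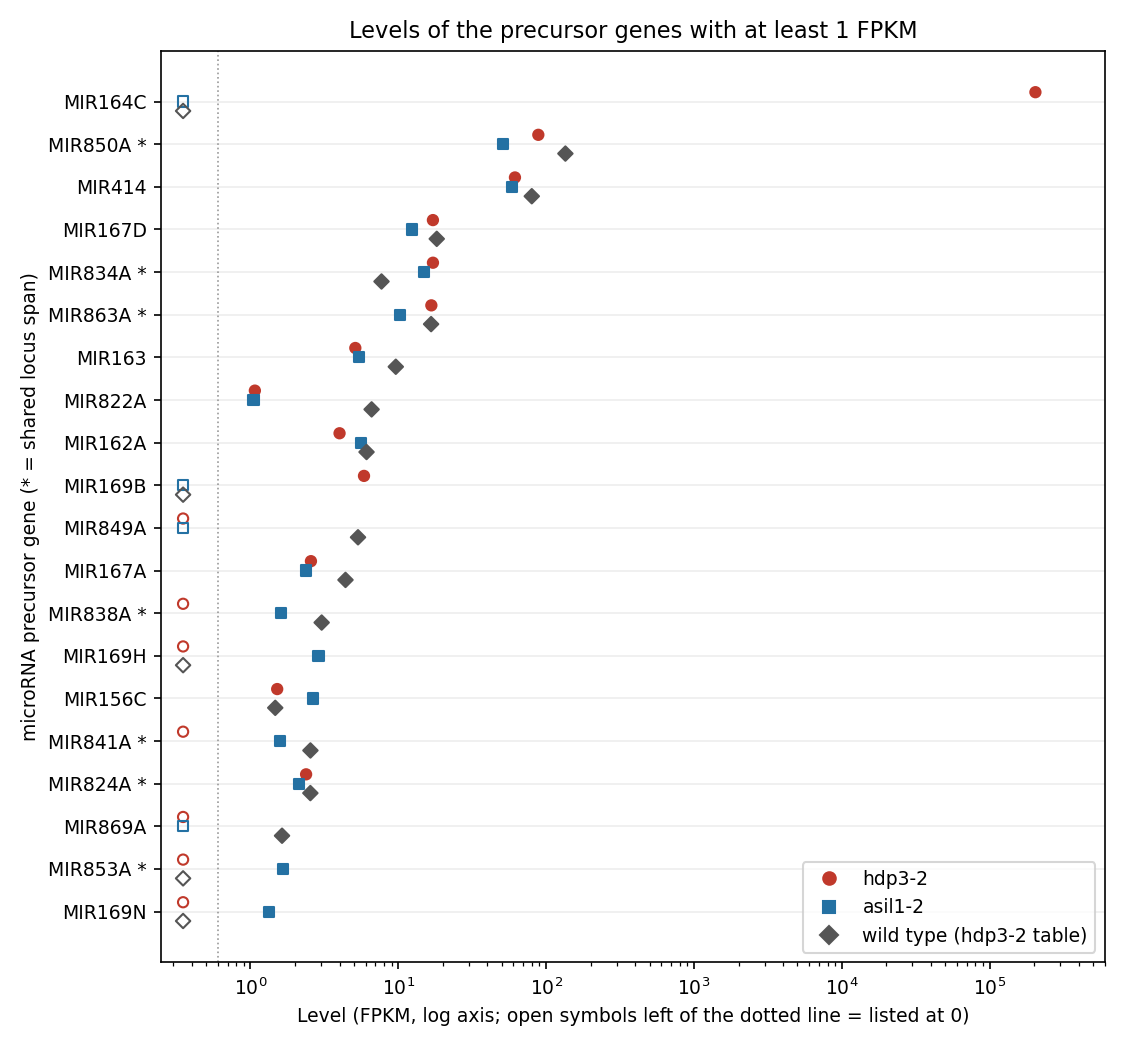
Level of the 20 precursor genes with at least 1 FPKM in a genotype (x axis, FPKM on a log axis) in hdp3-2 (circles), asil1-2 (squares) and wild type (diamonds, hdp3-2 table), with open symbols left of the dotted line for a listing at 0 and a star for a shared span. Values above 0 lie between 1.05 and 134.9 FPKM for all genes but MIR164C, which has 203790 FPKM in hdp3-2.

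Of the 175 genes, 12 were tested by the authors in each table. In hdp3-2, 0 were called higher and 0 lower by Cuffdiff at q under 0.05, where 1.30% and 1.78% of all tested genes were, and 2 had an unadjusted p under 0.05. In asil1-2, 0 were called higher and 1 lower, where 2.71% and 5.72% of all tested genes were, and 4 had an unadjusted p under 0.05. An unadjusted p under 0.05 was found for 12.9% of all tested genes in hdp3-2 and 20.1% in asil1-2. Of the 12 tested genes, 8 had a lower FPKM in hdp3-2 than in wild type (58.7% of all tested genes did) and 9 had a lower FPKM in asil1-2 than in wild type (60.3% of all tested genes did). With 12 genes in each table, nothing particular to the precursor genes is read from these counts. Both tables use the same wild-type libraries, so values that are alike in the mutants are not independent of each other.

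The called gene was MIR167D (AT1G31173, span chr1:11137365-11138969, hairpin gene chr1:11137539-11137915 on the plus strand, no overlapping gene in RefSeq TAIR10.1). It makes a form of miR167, which acts on the auxin response factors ARF6 and ARF8. The authors' deposited table gives 12.4 FPKM in asil1-2, against 18.5 FPKM in wild type, a level 1.49-fold lower in the mutant (log2 fold change -0.57 ± 0.27, Cuffdiff p = 0.00225 and q = 0.0318). In hdp3-2 it had 17.1 FPKM, and in wild type 18.2 FPKM (log2 fold change -0.086 ± 0.29, Cuffdiff q = 0.955). The level was thus lower in asil1-2 and about that of wild type in hdp3-2, but the difference between the mutants' fold changes, hdp3-2 minus asil1-2, was 0.49 ± 0.40 and did not pass a z test over 19977 genes (unadjusted p of 0.217, Benjamini-Hochberg adjusted p of 0.999935).

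MIR167A (AT3G22886), whose product has the same seed as miR167d, had 2.56 FPKM in hdp3-2 and 4.39 FPKM in wild type. In asil1-2 it had 2.39 FPKM, against 4.47 FPKM in wild type. Both mutants lay below wild type, with log2 fold changes of -0.78 ± 0.65 (Cuffdiff q = 0.533) and -0.91 ± 0.65 (Cuffdiff q = 0.255), and neither was called.

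The targets of this family were measured in the same libraries. ARF6, an activator of auxin response genes in flower and hypocotyl growth, had 16.6 FPKM in asil1-2, against 15.3 FPKM in wild type (log2 fold change 0.12 ± 0.25, Cuffdiff q = 0.784). ARF8, its close relative, had 7.55 FPKM in asil1-2, against 10.05 FPKM in wild type (log2 fold change -0.41 ± 0.26, Cuffdiff q = 0.168). In hdp3-2 ARF6 had 15.8 FPKM, against 15.0 FPKM in wild type, and ARF8 7.93 FPKM, against 9.86 FPKM in wild type (Cuffdiff q = 0.960 and 0.594). Neither gene was called in either mutant. Their sites for miR167a-5p, found in the coding sequence of the RefSeq transcripts, are shown 5′ to 3′ with the bases that face the seed in capitals, since miR167a and miR167d share their seed.
ARF6, chr1:10686478-10686498, minus strand: gagatcaggctggCAGCTTGt
ARF8, chr5:14633841-14633861, plus strand: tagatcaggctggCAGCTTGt

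The ARF6 site has 4 mismatches to miR167a-5p and the ARF8 site 3. A site with a penalty of at most 4 (1 per mismatch or unpaired site base, 0.5 per G:U pair) for this miRNA lies in 0.120% of the 27444 coding genes searched, on the transcript strand of the longest transcript. That limit is the penalty of the ARF6 site itself, so this share is no support for the ARF6 and ARF8 sites.

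Among the genes that were tested and not called, the lowest fold changes were those of MIR822A (AT5G03552, chr5:897020-897356, minus strand), the source of a miRNA whose long hairpin is known to be cut by DCL4. RefSeq places it in an intron of AT5G03553, a gene of the opposite strand that was not analysed here. It had 1.07 FPKM in hdp3-2 and 6.60 FPKM in wild type (log2 fold change -2.62 ± 1.42, the authors' Cuffdiff p = 0.0422, q = 0.359). In asil1-2 it had 1.05 FPKM, against 6.72 FPKM in wild type (log2 fold change -2.68 ± 1.24, the authors' Cuffdiff p = 0.0365, q = 0.207). The level was 6.16-fold lower in hdp3-2 and 6.42-fold lower in asil1-2 than in the wild type they share, with SEs of over 1 on the log2 scale, and was not called.

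MIR163 (AT1G66725, chr1:24883931-24884559) makes the 24-base miR163, which acts on methyltransferase genes of secondary metabolism. It had 5.12 FPKM in hdp3-2 and 9.61 FPKM in wild type (log2 fold change -0.91 ± 0.49, the authors' Cuffdiff p = 0.0123, q = 0.186). In asil1-2 it had 5.42 FPKM, against 9.79 FPKM in wild type (log2 fold change -0.85 ± 0.44, the authors' Cuffdiff p = 0.00875, q = 0.0833). Both mutants were near 5 FPKM, and neither difference passed the adjustment over the table.

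MIR414 (AT1G67195) had the highest level of the precursor genes with a span of their own that were tested. It had 61.5 FPKM in hdp3-2, against 79.9 FPKM in wild type (log2 fold change -0.38 ± 0.30, Cuffdiff q = 0.454), and 59.0 FPKM in asil1-2, against 81.4 FPKM in wild type (log2 fold change -0.46 ± 0.26, Cuffdiff q = 0.0989). MIR162A (AT5G08185), whose miRNA acts on DCL1, had 4.00 FPKM in hdp3-2 and 6.09 FPKM in wild type, while asil1-2 had 5.60 FPKM, against 6.21 FPKM in wild type (Cuffdiff q = 0.554 and 0.872). Both genes lay below wild type in each mutant, and neither was called.

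MIR156C (AT4G31877), one of the loci of the juvenile-phase miRNA, lay above wild type in asil1-2, with 2.63 FPKM against 1.50 FPKM (log2 fold change 0.81 ± 0.58, Cuffdiff q = 0.284). In hdp3-2 it had 1.52 FPKM, against 1.47 FPKM in wild type (log2 fold change 0.044 ± 0.64). The difference between the mutants' fold changes, hdp3-2 minus asil1-2, was -0.77 ± 0.87 (z test, unadjusted p of 0.373, adjusted p of 0.999935). None of the 11 precursor genes tested in both tables passed this z test between the mutants with Benjamini-Hochberg adjustment. At an unadjusted p under 0.05 the count was 0 as well, and 0.130% of all 19977 genes passed the adjusted test. With the summed variance multiplied by 0.5 the count among the precursor genes was again 0, where 0.626% of all genes passed. Since most SEs used here are larger than those behind the authors' p, this test can miss differences between the mutants.

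The tested genes with a shared span had SEs up to 3.55 on the log2 scale. MIR850A had 88.5 FPKM in hdp3-2, against 134.9 FPKM in wild type (log2 fold change -0.61 ± 3.01), and 50.9 FPKM in asil1-2, against 137.4 FPKM in wild type (-1.43 ± 2.65). MIR863A had 16.7 FPKM in hdp3-2 and in wild type (0.0056 ± 3.55), and 10.2 FPKM in asil1-2, against 17.0 FPKM in wild type (-0.73 ± 3.16). The values of both genes were lowest in asil1-2, as were those of AT4G13495 around them, and none of these differences was called.

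MIR834A had 17.1 FPKM in hdp3-2, against 7.69 FPKM in wild type (log2 fold change 1.16 ± 1.70), and 14.9 FPKM in asil1-2, against 7.84 FPKM in wild type (0.92 ± 1.50). AT5G08230, which overlaps it, had 4.91 FPKM in hdp3-2, against 4.71 FPKM in wild type, while asil1-2 had 4.78 FPKM, against 4.80 FPKM in wild type. MIR824A, the source of the miRNA that acts on AGL16, a MADS-box gene of stomatal development, had 2.38 FPKM in hdp3-2, against 2.54 FPKM in wild type, while asil1-2 had 2.13 FPKM, against 2.59 FPKM in wild type. MIR834A thus lay above wild type in both mutants and MIR824A near it, with Cuffdiff q of 0.955 and 0.888 for MIR834A and 0.974 and 0.713 for MIR824A.

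**Figure D3:**
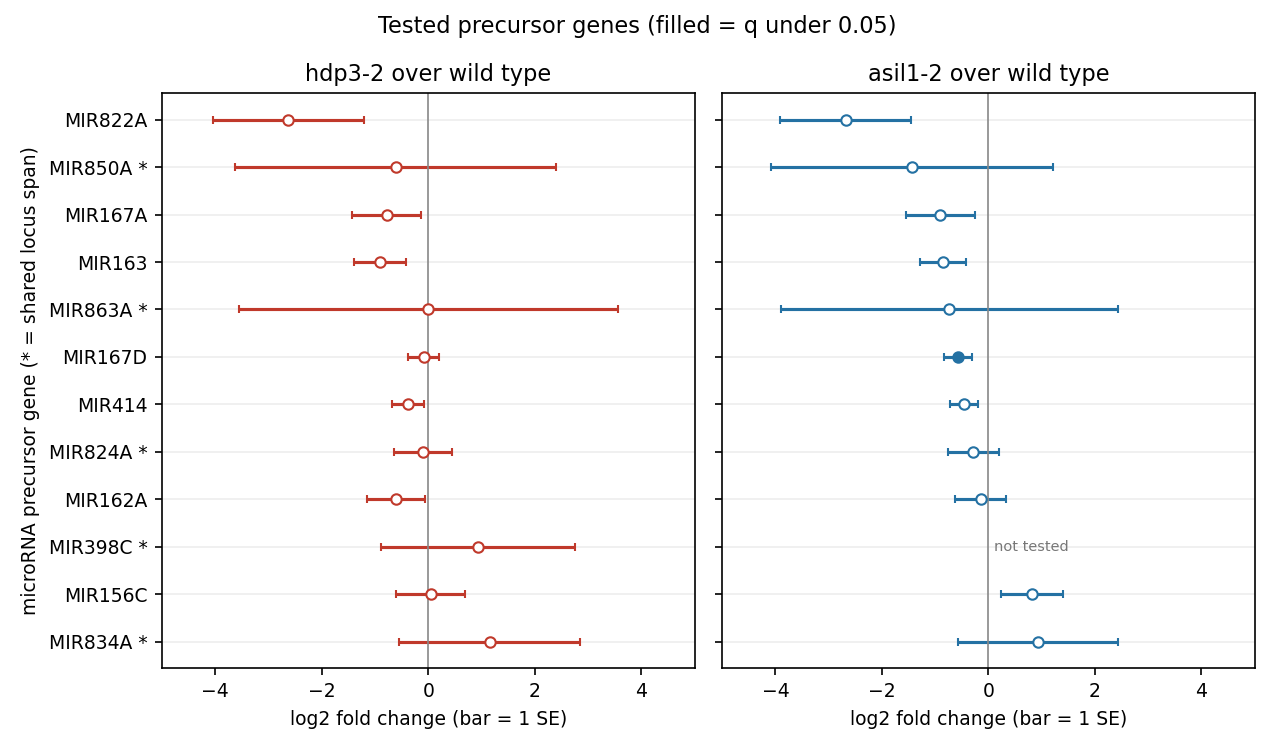
Log2 fold change over wild type (x axis) in hdp3-2 (left panel) and asil1-2 (right panel) of the tested precursor genes above 0 in both genotypes, with bars of 1 SE, a filled symbol for q under 0.05 and a star for a shared span. MIR167D in asil1-2, at -0.57, is the only filled symbol, and the bars of MIR850A and MIR863A span more than 2 log2 units on either side.

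Across the precursor genes with at least 1 FPKM and a value above 0 in both genotypes, the median log2 fold change was -0.38 over 11 genes in hdp3-2, where the median of all tested genes was -0.065. In asil1-2 it was -0.71 over 13 genes, against -0.081 for all tested genes. The 13 include MIR838A and MIR841A, which have shared spans and were not tested in asil1-2, and the median is the value of MIR841A. With the shared spans left out the median was -0.61 in hdp3-2 and -0.57 in asil1-2. The hdp3-2 median depended on the level required, with -0.091 without an FPKM minimum and -0.086 at a minimum of 10 FPKM, values near that of all tested genes. These medians describe the genes that could be measured and stand for no test.

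Several precursor genes were at 0 in one genotype and above 1 FPKM in another, all without a test by the authors except MIR853A, and no fold is given for them. MIR849A was at 0 in hdp3-2 and in asil1-2, against 5.34 and 5.44 FPKM in wild type of each table, and MIR869A was at 0 in both mutants, against 1.63 and 1.66 FPKM in wild type. MIR838A was at 0 in hdp3-2, against 3.03 FPKM in wild type, and had 1.60 FPKM in asil1-2, against 3.09 FPKM in wild type. MIR841A was at 0 in hdp3-2, against 2.54 FPKM in wild type, and had 1.58 FPKM in asil1-2, against 2.59 FPKM in wild type. MIR849A and MIR869A were thus at 0 in both mutants, and MIR838A and MIR841A in hdp3-2 only. The share of all genes with such a pattern was not counted. These are untested single values, so no loss of expression is read from them.

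The reverse was seen for MIR169B, MIR169H and MIR169N of the miR169 family, each above 0 in 1 mutant only. MIR169B had 5.86 FPKM in hdp3-2 and 0 in wild type, and MIR169H and MIR169N had 2.89 and 1.33 FPKM in asil1-2 and 0 in wild type. MIR853A had 1.66 FPKM in asil1-2 and 0 in wild type (Cuffdiff q = 0.584). The miR169 spans measure 181 bases (MIR169B), 190 bases (MIR169H) and 215 bases (MIR169N). Of other genes with unshared spans of 151 to 250 bases, 88.9% were at 0 in every genotype. How many were above 0 in 1 mutant only was not counted, so no gain of expression is read from these values.

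The highest value of any precursor gene was that of MIR164C (AT5G27807, chr5:9852664-9852783), the source of a miRNA that acts on NAC transcription factors of organ boundaries. It had 203790 FPKM in hdp3-2 and 0 in asil1-2 and in wild type, and the authors made no test. That value was the 6th highest of all genes in hdp3-2 and made up 4.56% of the sum of FPKM in that mutant. In all, 9 genes reached 100000 FPKM in some genotype, and all 9 have spans of 114 to 123 bases, among them the chloroplast genes RPS12 (1.24e+06 FPKM in hdp3-2 and 0 in wild type) and RPL36 (808270 FPKM in hdp3-2 and 0 in wild type). The FPKM columns summed to 4.47e+06 in hdp3-2 and 1.46e+06 in wild type of that table. The value of MIR164C therefore stands with a group of very short genes at extreme FPKM, and whether it reflects RNA of the locus was not tested.

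A list of 30 genes that make or use miRNAs was read beside the precursor genes. In hdp3-2, Cuffdiff called 1 of 30 tested genes higher (AGO2) and 0 lower, against 1.30% and 1.78% of all tested genes, and 2 of the 30 had an unadjusted p under 0.05, against 12.9% of all tested genes. In asil1-2, Cuffdiff called 0 of 30, against 8.42% of all tested genes, and 1 had an unadjusted p under 0.05, against 20.1%. The median log2 fold change of the list was 0.0012 in hdp3-2, where all tested genes had -0.065, and -0.10 in asil1-2, where all tested genes had -0.081.

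DCL1, the endonuclease that cuts the hairpins, had 10.7 FPKM in hdp3-2, against 9.14 FPKM in wild type, while asil1-2 had 8.65 FPKM, against 9.31 FPKM in wild type (Cuffdiff q = 0.842 and 0.873). Its partner HYL1, a double-stranded RNA-binding protein, had 7.33 FPKM in hdp3-2, against 6.003 FPKM in wild type, while asil1-2 had 6.43 FPKM, against 6.12 FPKM in wild type. The zinc-finger partner SERRATE had 24.3 FPKM in hdp3-2, against 22.9 FPKM in wild type, while asil1-2 had 28.1 FPKM, against 23.3 FPKM in wild type. These 3 genes of the cutting complex were within 0.29 log2 units of wild type in each mutant, and none was called.

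HEN1, the methyltransferase that protects the 3′ end of miRNAs, had 2.75 FPKM in hdp3-2, against 3.18 FPKM in wild type, while asil1-2 had 2.80 FPKM, against 3.23 FPKM in wild type. AGO1, the main effector protein, had 63.5 FPKM in hdp3-2, against 60.7 FPKM in wild type, while asil1-2 had 60.7 FPKM, against 61.8 FPKM in wild type. Neither was called. AGO2, an effector known from antiviral defence and itself a target of miR403, rose in hdp3-2, with 10.6 FPKM against 6.01 FPKM in wild type (log2 fold change 0.82 ± 0.30, Cuffdiff q = 0.00374), and had 5.41 FPKM in asil1-2, against 6.13 FPKM in wild type (Cuffdiff q = 0.673). The single locus of miR403 was at 0 in every genotype.

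The second list held 87 known target genes of 26 miRNA families, of which 16 families had all their loci at 0. In hdp3-2, 1 of 80 tested targets was called higher and 5 lower, or 6.25% lower against 1.78% of all tested genes. In asil1-2, 0 of 81 were called higher and 11 lower, or 13.6% lower against 5.72% of all tested genes. The median log2 fold change of the targets was -0.19 in hdp3-2 and -0.24 in asil1-2, where all tested genes had -0.065 and -0.081. In hdp3-2, 60 of 80 targets (75.0%) lay below 0, against 58.7% of all tested genes, and in asil1-2, 64 of 81 (79.0%) did, against 60.3%. The calls fell on 4 families in hdp3-2 and on 8 in asil1-2.

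**Figure D4:**
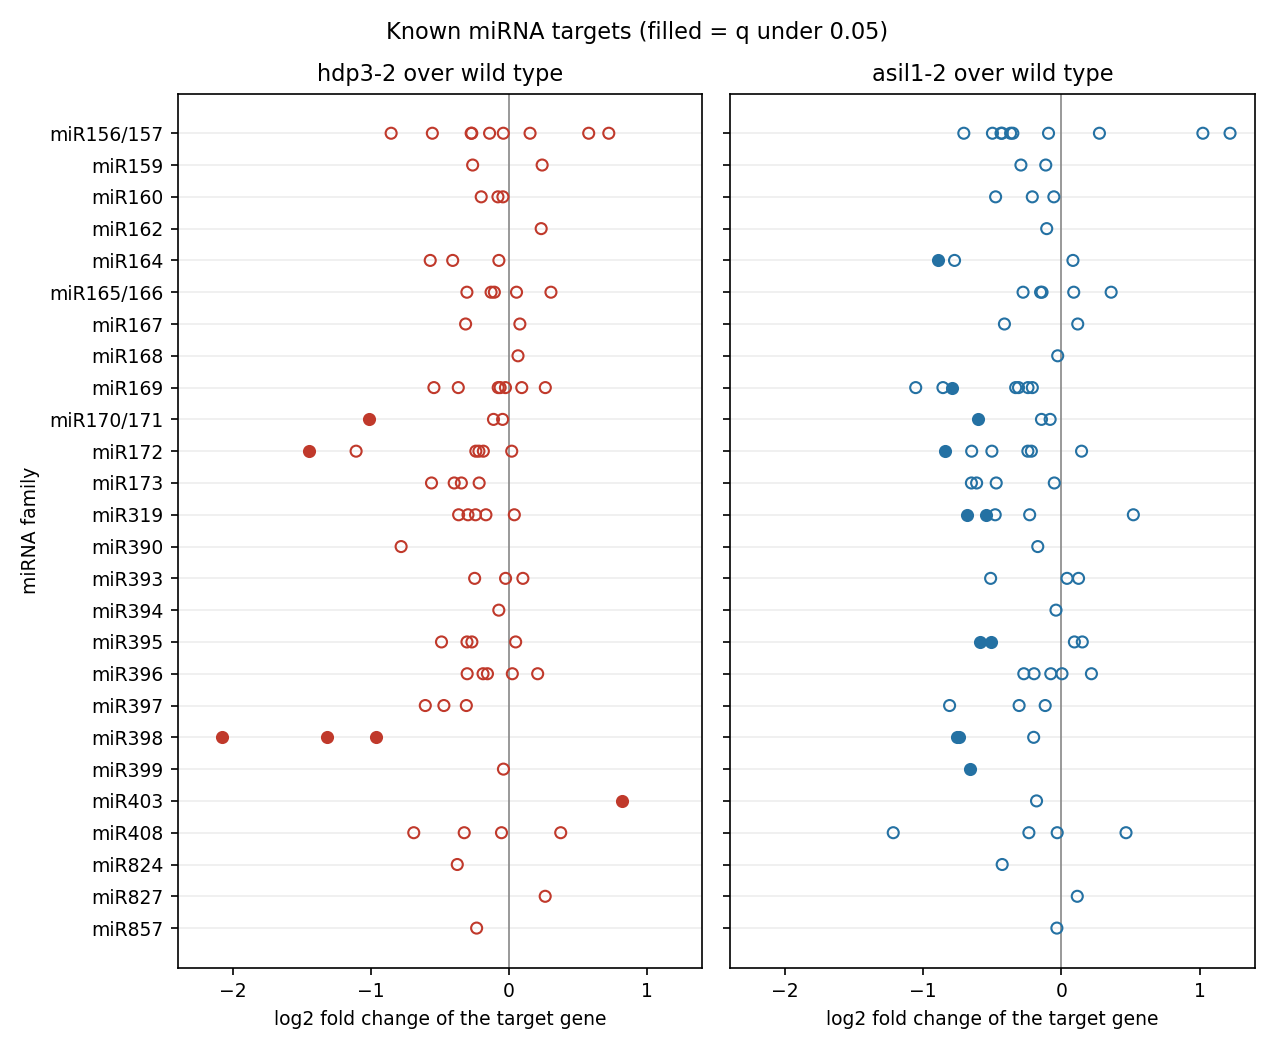
Log2 fold change over wild type (x axis) of each tested target gene in hdp3-2 (left panel) and asil1-2 (right panel), by miRNA family (y axis), with filled symbols for q under 0.05. The 3 targets of miR398 are all filled in hdp3-2, at -0.96 to -2.08, and AGO2, the target of miR403, is the only filled symbol right of 0.

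All 3 targets of miR398, the copper-responsive miRNA, were called lower in hdp3-2, and CSD2 had the lowest fold change of the list. CSD2, the chloroplast copper/zinc superoxide dismutase, fell to 112.4 FPKM in hdp3-2, against 474.1 FPKM in wild type (log2 fold change -2.08 ± 0.28, Cuffdiff q = 0.00374). CCS, the chaperone that loads copper into these enzymes, fell to 46.5 FPKM in hdp3-2, against 115.9 FPKM in wild type (log2 fold change -1.32 ± 0.28, Cuffdiff q = 0.00374). CSD1, the cytosolic superoxide dismutase, fell to 124.6 FPKM in hdp3-2, against 243.0 FPKM in wild type (log2 fold change -0.96 ± 0.29, Cuffdiff q = 0.00374), and its value is less certain because it shares its span with another gene. The level in hdp3-2 was thus lower by 1.95-fold (CSD1) to 4.22-fold (CSD2).

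In asil1-2, CSD2 fell to 288.5 FPKM, against 483.0 FPKM in wild type (log2 fold change -0.74 ± 0.24, Cuffdiff q = 0.00165), and CCS fell to 69.8 FPKM, against 118.0 FPKM in wild type (-0.76 ± 0.24, Cuffdiff q = 0.00165). CSD1 had 215.4 FPKM in asil1-2, against 247.6 FPKM in wild type (-0.20 ± 0.25, Cuffdiff q = 0.594). The difference between the mutants did not pass the adjusted z test for any of the 107 genes of both lists that were tested in both tables, with an adjusted p of 0.180 for CSD2. Of all 19977 genes, 0.130% passed that test. With the summed variance multiplied by 0.5, since wild type is shared, CSD2 alone of the 107 passed the z test (adjusted p of 0.000232). At that setting 0.626% of all 19977 genes passed.

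The precursor of miR398 could be seen at 1 of its 3 loci. MIR398C had 0.709 FPKM in hdp3-2, against 0.371 FPKM in wild type (log2 fold change 0.93 ± 1.82, Cuffdiff q = 0.929), and 0.530 FPKM in asil1-2, against 0.378 FPKM in wild type, without a test. It lay above wild type in both mutants with an SE far larger than the difference in hdp3-2, and its span is shared with ATNRT2.7, which had 24.6 FPKM in hdp3-2, against 20.3 FPKM in wild type, while asil1-2 had 27.6 FPKM, against 20.7 FPKM in wild type. The sites of miR398c-3p in its 3 targets, read from RefSeq transcripts, are shown with the bases facing the seed in capitals, and an unpaired base among them where there is one.
CSD2, chr2:12015572-12015593, plus strand, coding: tgcgggtgacctgGGAAACATa
CCS, chr1:4267521-4267542, minus strand, coding: cattgggagacctgGGAACACt
CSD1, chr1:2827177-2827685, plus strand, 5′ UTR and across an intron: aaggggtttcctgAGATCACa

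The CSD2 site has 1 mismatch, 4 G:U pairs and 1 unpaired base, the CCS site 3 mismatches, 1 G:U pair and 1 unpaired base, and the CSD1 site 4 mismatches. A site for miR398c-3p with a penalty of at most 4.5, the limit used, lies in 58 of the 27444 coding genes searched (0.211%). The CCS site lies at that limit, and the search gave a site in all 87 listed targets. The allowance for an unpaired base was added after CSD2 gave no site, so this share is no support for the 3 sites.

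Transcription factor targets made up most of the other calls. SNZ, an AP2-like floral repressor and target of miR172, fell to 6.03 FPKM in hdp3-2, against 16.5 FPKM in wild type (log2 fold change -1.45 ± 0.35), and to 9.37 FPKM in asil1-2, against 16.8 FPKM in wild type (-0.84 ± 0.29, Cuffdiff q = 0.00374 and 0.00165). SCL6, a GRAS factor of shoot branching and target of miR171, fell to 9.44 FPKM in hdp3-2, against 19.0 FPKM in wild type (-1.01 ± 0.31), and to 12.8 FPKM in asil1-2, against 19.4 FPKM in wild type (-0.60 ± 0.27, Cuffdiff q = 0.00374 and 0.0266). Both genes were lower in each mutant, while the loci of miR171 were all at 0 and the only miR172 locus above 0, AT2G28056, had 0.157 FPKM in hdp3-2 against 0.0884 FPKM in wild type, while asil1-2 had 0.0342 FPKM against 0.0901 FPKM in wild type. The other miR171 targets, SCL27 and SCL22, were not called (log2 fold changes -0.047 and -0.11 in hdp3-2, -0.082 and -0.14 in asil1-2). Nor were the miR172 targets AP2, TOE1, TOE2, TOE3 and SMZ. Their log2 fold changes were 0.019, -0.22, -0.19, -0.24 and -1.11 in hdp3-2. In asil1-2 they were -0.22, -0.24, 0.15, -0.65 and -0.50.

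The remaining calls were in asil1-2. ORE1, a NAC factor of leaf senescence and target of miR164, fell to 9.54 FPKM in asil1-2, against 17.7 FPKM in wild type (log2 fold change -0.89 ± 0.29, Cuffdiff q = 0.00165). NFYA2, a subunit of the NF-Y factor and target of miR169, fell to 3.16 FPKM in asil1-2, against 5.46 FPKM in wild type (-0.79 ± 0.36, Cuffdiff q = 0.0327). TCP2 and TCP4, leaf growth regulators targeted by miR319, fell to 22.7 and 16.6 FPKM in asil1-2, against 36.4 and 24.3 FPKM in wild type (-0.68 ± 0.25 and -0.55 ± 0.25, Cuffdiff q = 0.00422 and 0.0402). All 4 were also below wild type in hdp3-2, by 0.54 log2 units or less, and were not called there. Other tested targets of these families were not called in asil1-2. Those of miR164, NAC1 and NAC100, had log2 fold changes of 0.084 and -0.77. Those of miR319, TCP3, TCP10 and TCP24, had 0.52, -0.48 and -0.23. All 7 tested miR169 targets lay below wild type in asil1-2, with NFYA2 alone called.

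Of the nutrient genes, 3 were called in asil1-2. SULTR2;1, a sulfate transporter targeted by miR395, fell to 30.4 FPKM in asil1-2, against 45.6 FPKM in wild type (log2 fold change -0.59 ± 0.24, Cuffdiff q = 0.0172). APS4, an ATP sulfurylase targeted by the same miRNA, fell to 76.8 FPKM in asil1-2, against 109.5 FPKM in wild type (-0.51 ± 0.24, Cuffdiff q = 0.0405), and shares its span with another gene. The other 2 tested targets of miR395, APS1 and APS3 (named after their values were seen), lay above wild type in asil1-2 and were not called (log2 fold changes 0.094 and 0.15, Cuffdiff q = 0.837 and 0.730). PHO2, the ubiquitin-conjugating enzyme of phosphate homeostasis targeted by miR399, fell to 29.7 FPKM in asil1-2, against 46.9 FPKM in wild type (-0.66 ± 0.24, Cuffdiff q = 0.00627). None of these 3 was called in hdp3-2. APS4 there had a value much like that in asil1-2, 76.6 FPKM against 107.5 FPKM in wild type (-0.49 ± 0.28, Cuffdiff q = 0.192). SULTR2;1 and PHO2 had log2 fold changes of -0.27 and -0.041 in hdp3-2 (Cuffdiff q = 0.662 and 0.979). The loci of miR395, miR399 and miR319 were all at 0 in every genotype, so no value of their precursors stands beside these targets.

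AGL16, the target of miR824, was looked at after its values were seen, since the precursor of that miRNA was tested. It had 18.7 FPKM in hdp3-2, against 24.3 FPKM in wild type, while asil1-2 had 18.4 FPKM, against 24.7 FPKM in wild type (log2 fold changes -0.37 ± 0.30 and -0.43 ± 0.27, Cuffdiff q = 0.478 and 0.145). It was not called in either mutant. Its site and that of DCL1 for miR162a-3p are shown because the precursors, MIR824A and MIR162A, were tested.
AGL16, chr3:21180537-21180557, plus strand, 3′ UTR: tctcttctcacaaATGGTCTa
DCL1, chr1:27522-27627, plus strand, coding and across an intron: ctggatgcagaggTATTATCGa

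The AGL16 site has 1 G:U pair and no mismatch, and a site that close for miR824-5p lies in 2 of the 27444 genes. The DCL1 site has no mismatch and 1 unpaired base, and lies in 1 of them at that penalty. It rests on the allowance for an unpaired base that was added after CSD2 gave no site. Each limit is the penalty of the known site itself, so these shares are no support for the AGL16 and DCL1 sites.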

How the data were processed

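The authors deposited 2 tables in the layout of Cuffdiff, 1 per mutant. TopHat2, Cufflinks, Cuffdiff and deepTools and the build TAIR10 are named per the submitters' processing notes, without versions. The deposited FPKM columns hold 1 value per genotype, and those of wild type differ between the tables by a factor of 0.982, so each was scaled on its own. The deposited score is the authors' test statistic. The p-value and q-value columns are the authors', per the file headers. The tables hold 0 other per-sample columns. Depth and the counting over shared spans are not given.

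Genes whose status was OK were taken as tested. The log2 fold change was computed from FPKM, since the deposited fold column was damaged by spreadsheet software, and its SE is the fold change over the authors' statistic. At the median the z implied by their p is 1.41 (hdp3-2) and 1.42 (asil1-2) times the statistic, so most SEs behind p are smaller. The z test between mutants, with Benjamini-Hochberg adjustment over 19977 genes, was tested on simulated data. The simulated differences were far larger than those of the precursor genes, and the SEs were taken as true. The simulation therefore does not show how well the test finds smaller differences. A fold minimum, a q under 0.01, unadjusted p, FPKM minima, pseudocounts of 1 and 0.1, centring and leaving out shared spans were tried.

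Named precursor genes are those called, the 12 with the highest FPKM, per mutant the 6 largest increases and decreases above 0 in both genotypes, and the 4 highest at 0 in one. MIR824A, MIR841A, MIR169N, MIR398C, MIR172, MIR408 and MIR857A fall outside this rule and were named after their values were seen. Named list genes are those called, targets of families with a called gene, and DCL1, HYL1, SERRATE, HEN1 and AGO1. The genes and lists were chosen with earlier results of these data known. Shared spans are those where the tables give genes the same start and end. Sequences come from RefSeq TAIR10.1, whose miRNA genes overlap the tables' span at 175 of 175 loci. Of 28626 nuclear genes with unshared spans, 31.1% have the same start and end in both. Statements on exons, introns and overlaps therefore rest on the RefSeq gene models. Target sites were searched with a penalty limit of 4.5, and the allowance for 1 unpaired site base was added after CSD2 gave no site without it. SciPy 1.17.1, NumPy 2.4.6, matplotlib 3.10.9 and pandas 2.3.3 ran under Python 3.11.15.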

Additional observations from a re-analysis of the deposited data

How the results depend on the processing

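The count of precursor genes called lower in asil1-2 was 1 as reported, 0 at q under 0.01 or with at least a 2-fold change, and 4 at an unadjusted p under 0.05; in hdp3-2 it was 0, and 2 at an unadjusted p under 0.05. The median log2 fold change in hdp3-2 (-0.38) was -0.091 without an FPKM minimum, -0.086 at 10 FPKM, -0.37 as log2(FPKM + 1), -0.31 centred on all tested genes and -0.61 without shared spans. In asil1-2 (-0.71) it was -0.64, -0.57, -0.54, -0.63 and -0.57 under the same settings, and -0.68 as log2(FPKM + 0.1). Targets called in asil1-2 numbered 11, with 6 at q under 0.01 and 0 with at least a 2-fold change. In hdp3-2 they numbered 6, with 6 at q under 0.01 and 4 with at least a 2-fold change. The share of all tested genes at q under 0.01 or with a 2-fold change was not counted. The counts of targets and precursor genes at those settings are therefore not read as particular to them. Genes at 0 numbered 151, and 127 without shared spans. Among fold changes of named precursor genes, 22 stayed within their SE under a pseudocount of 1 and under centring, and the 2 without an SE, MIR838A and MIR841A in asil1-2, moved without changing sign. No paired analysis was possible because the tables hold 1 value per genotype, and for the same reason no library could be left out. Precursor genes with spans under 337 bases were not tested when their span was their own, so the data limit what can be said of most of the 175.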
